A study of Mus musculus with 12 samples.

Results

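The CXC chemokines described here are 8 genes that encode small secreted proteins, Cxcl1, Cxcl2, Cxcl9, Cxcl10, Cxcl12, Cxcl13, Cxcl14 and Cxcl16. They were taken by gene symbol from tables of 23845 genes, each symbol matched 1 line, and all 8 were among the 15295 genes that passed the filter on low counts. RNA was sequenced from microglia, the resident macrophages of the brain, purified with Percoll from mice of the strain C57BL6/J that were 3 to 4 months old. There were 4 groups with 3 libraries each and 1 animal per library. CPEB1-KO-LPS and CPEB1-KO were mice labelled as knockouts of CPEB1, an RNA-binding protein that acts on poly(A) tails, with and without an injection of lipopolysaccharide (LPS), a bacterial cell wall component, 24 h before the cells were taken. WT-LPS and WT were wild-type mice with and without the same injection. The sources used here do not give the LPS dose, the way the knockout was made or the sex of the animals.

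Chemokines guide the movement of leukocytes through G protein-coupled receptors, and the CXC class is named for the single residue between its leading cysteines. Cxcl1 and Cxcl2 bind Cxcr2 and draw neutrophils, while Cxcl9 and Cxcl10 bind Cxcr3 on activated T and NK cells and are classic interferon targets. Cxcl16 is made as a membrane protein that binds Cxcr6, Cxcl13 binds Cxcr5 and draws B cells, Cxcl12 binds Cxcr4 and Ackr3 and holds cells in place, and Cxcl14 is a chemokine that many healthy epithelia and neurons make. In the brain, microglia and vascular cells make the inflammatory members after LPS, and transcription through NF-κB and interferon factors together with control of mRNA decay set their levels.

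Of the 8 genes, 5 lie on chromosome 5. Cxcl1 (GRCm38 chr5:90891241-90893115) and Cxcl2 (chr5:90903871-90905938) are neighbours on the plus strand. Cxcl9 (chr5:92321347-92328079) and Cxcl10 (chr5:92346638-92348889) lie on the minus strand of the same chromosome, and Cxcl13 (chr5:95956951-95961068) on its plus strand. Cxcl12 (chr6:117168535-117181367, plus strand), Cxcl14 (chr13:56288643-56296551, minus strand) and Cxcl16 (chr11:70453983-70459984, minus strand) are elsewhere. Each is a protein-coding gene, and the positions are those of GENCODE M21. RefSeq (GRCm38.p6) gave the 250 bases before the start of 7 of the 8 genes, all but Cxcl16. Those of Cxcl1, Cxcl2, Cxcl9, Cxcl10 and Cxcl13 follow because most of the results below concern these genes. They are written 5′ to 3′ on the gene's strand, with capitals for matches on either strand to the motifs named after them.
Cxcl1 (chr5:90890995-90891244, plus strand): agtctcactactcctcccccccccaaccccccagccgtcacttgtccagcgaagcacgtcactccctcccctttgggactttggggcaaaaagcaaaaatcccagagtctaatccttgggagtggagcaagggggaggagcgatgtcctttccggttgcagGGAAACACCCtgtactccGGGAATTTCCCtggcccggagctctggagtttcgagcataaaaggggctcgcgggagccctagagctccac
Cxcl2 (chr5:90903649-90903898, plus strand): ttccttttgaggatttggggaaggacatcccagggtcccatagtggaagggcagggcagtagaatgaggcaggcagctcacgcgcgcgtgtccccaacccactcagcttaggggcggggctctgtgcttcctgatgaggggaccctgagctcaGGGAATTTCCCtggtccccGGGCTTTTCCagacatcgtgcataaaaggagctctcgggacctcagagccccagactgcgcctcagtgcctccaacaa
Cxcl9 (chr5:92328080-92328329, minus strand): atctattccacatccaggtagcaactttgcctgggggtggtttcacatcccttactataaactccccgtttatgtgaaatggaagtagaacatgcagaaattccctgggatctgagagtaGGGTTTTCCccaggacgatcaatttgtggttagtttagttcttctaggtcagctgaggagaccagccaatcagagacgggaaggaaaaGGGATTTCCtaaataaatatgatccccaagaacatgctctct
Cxcl10 (chr5:92348890-92349139, minus strand): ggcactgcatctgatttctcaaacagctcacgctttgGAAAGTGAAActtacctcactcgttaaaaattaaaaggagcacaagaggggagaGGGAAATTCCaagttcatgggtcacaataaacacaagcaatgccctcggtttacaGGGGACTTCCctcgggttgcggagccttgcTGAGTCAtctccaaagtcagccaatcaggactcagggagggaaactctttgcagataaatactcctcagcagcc
Cxcl13 (chr5:95956689-95956938, plus strand): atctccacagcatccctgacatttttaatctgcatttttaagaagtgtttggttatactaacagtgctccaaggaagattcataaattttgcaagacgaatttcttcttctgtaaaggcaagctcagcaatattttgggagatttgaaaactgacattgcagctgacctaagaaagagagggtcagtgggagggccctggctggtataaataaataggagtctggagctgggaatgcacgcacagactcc

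Capitals mark NF-κB-type sequences spelled GGGNNNTTCC or GGGNNTTCC, the core of the interferon-stimulated response element GAAANNGAAA, and the AP-1 sequence TGANTCA. The interferon-gamma activated sequence TTCNNNGAA was searched too. Cxcl1 and Cxcl2 had 3 matches each to the 10-letter NF-κB spelling, some of which overlap on opposite strands. Both promoters hold GGGAATTTCC, which begins 71 bases before the RefSeq start of Cxcl1 and 97 bases before that of Cxcl2, within a shared stretch of 14 bases. These RefSeq starts differ from the GENCODE starts given above, and the upstream sequences of both genes end inside the GENCODE spans. Distances from the 2 kinds of start are therefore not the same. That exact decamer was present in 23 of 27025 promoters (0.0851%). Cxcl9 had 2 matches to the 9-letter spelling. Cxcl10 had NF-κB matches 159 and 104 bases before its start (the second also holds the 9-letter spelling), an interferon element at 213 bases and an AP-1 match at 74 bases. An NF-κB match of either spelling was found in 4 of the 7 promoters, against 8.18% of all promoters (4.6% for the 10-letter and 4.88% for the 9-letter spelling). The interferon core was in 3.04%, the gamma-activated sequence in 7.18% and the AP-1 sequence in 6.87% of promoters. Cxcl12 and Cxcl13 had no match, and Cxcl14 had an interferon core and a gamma-activated sequence 172 and 191 bases before its start. A match is a match of letters, not a site shown to be used.

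**Figure D1:**
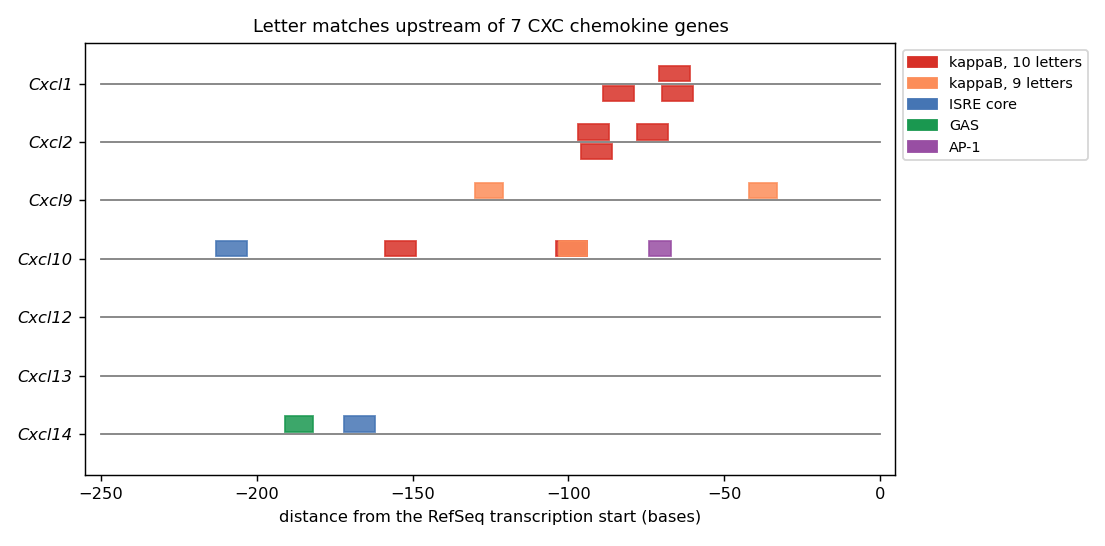
Motif matches in the 250 bases before the RefSeq start of 7 members, by distance from the start in bases. Boxes above a line are matches on the gene's strand and boxes below are on the other strand, and Cxcl12 and Cxcl13 have none.

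The 3′ untranslated regions also differ. AU-rich elements, repeats of ATTTA that mark short-lived mRNAs, were counted in GENCODE M21 transcripts. Cxcl1 had 7 in 592 bases, a number reached by 0.457% of 1968 genes whose region was within 20% of that length. Cxcl2 had 11 in 734 bases, reached by 0.095% of 2105 such genes. The other 6 members had 0 to 4, and the overlapping nonamer ATTTATTTA was in Cxcl1 (2) and Cxcl2 (4) and in no other member. The densest stretch of each is printed, numbered from the base after the stop codon, with the elements in capitals.
Cxcl1, bases 79 to 108: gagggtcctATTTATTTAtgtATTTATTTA
Cxcl2, bases 123 to 152: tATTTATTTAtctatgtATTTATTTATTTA

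The element that CPEB proteins recognise, here searched as TTTTAT, was found in 2 copies in Cxcl1 and Cxcl13, in 1 copy in Cxcl2, Cxcl9, Cxcl10, Cxcl12 and Cxcl14, and in 0 copies in Cxcl16. Among genes of like length, 12.3% had at least as many as Cxcl1 and 18.5% at least as many as Cxcl13. For the members with 1 copy this share was 44.6% (Cxcl2), 81.6% (Cxcl9), 44.4% (Cxcl10), 94.5% (Cxcl12) and 57.8% (Cxcl14). At the length of Cxcl16, 64.8% of genes had at least 1 copy.

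Library totals ran from 5.02 to 13.5 M expected counts (M, 1e+06 counts), with the shallowest libraries in WT. Cpeb1 itself did not check the labels. Its transcript averaged 33.1 ± 8.37 TPM in CPEB1-KO-LPS and 36.4 ± 10.98 TPM in WT-LPS (SD, n = 3 each). Without LPS it averaged 21.8 ± 4.42 TPM in CPEB1-KO and 26.2 ± 14.9 TPM in WT. TPM is a level per transcript length, in transcripts per 1e+06. A gene-level value does not show a deletion of part of the gene, so every genotype below is that of the label. The 12 microglia markers summed to 772 to 2959 TPM in CPEB1-KO-LPS, 2895 to 4548 TPM in CPEB1-KO, 1062 to 4985 TPM in WT-LPS and 6173 to 7088.5 TPM in WT, and none was at 0 in any library. RNA of other cells was present, with neuron markers at 1243 to 5850 TPM and neutrophil markers at 549 to 4056 TPM per library. Several marker lists that moved with LPS are given beside the LPS results. In such bulk samples fewer cells of a type and less RNA per cell cannot be told apart, and which cells made each chemokine was not tested. With 3 animals per group, p-values measure the spread between these libraries.

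The 8 chemokines together summed to 966 ± 369 TPM in CPEB1-KO-LPS, 151 ± 26.2 TPM in CPEB1-KO, 830 ± 292 TPM in WT-LPS and 95.9 ± 19.8 TPM in WT (SD, n = 3 each). Their make-up differed between untreated and LPS libraries. Without LPS, Cxcl14 was the most abundant member and held 40.7% to 77.1% of the sum in CPEB1-KO and 64.3% to 75.6% in WT. Cxcl16 and Cxcl12 followed in WT, with overlapping ranges. Cxcl2, Cxcl10, Cxcl9, Cxcl1 and Cxcl13 were each below 5 TPM in every WT library.

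After LPS, Cxcl10 and Cxcl2 took over. Cxcl10 held 25.8% to 51.6% of the sum in CPEB1-KO-LPS and 27.8% to 36.9% in WT-LPS. Cxcl2 held 11.4% to 24.1% in CPEB1-KO-LPS and 27.1% to 42.5% in WT-LPS. In CPEB1-KO-LPS the order by mean level was Cxcl10, Cxcl13, Cxcl2, Cxcl16, Cxcl14, Cxcl1, Cxcl12 and Cxcl9, and the only neighbours whose ranges did not overlap were Cxcl1 and Cxcl12. In WT-LPS it was Cxcl2, Cxcl10, Cxcl14, Cxcl16, Cxcl1, Cxcl12, Cxcl9 and Cxcl13, with gaps between Cxcl10 and Cxcl14 and between Cxcl1 and Cxcl12. Cxcl13 thus stood in a different place in the orders, with 9.29% to 23.0% of the sum in CPEB1-KO-LPS against 0.317% to 1.42% in WT-LPS.

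**Figure D2:**
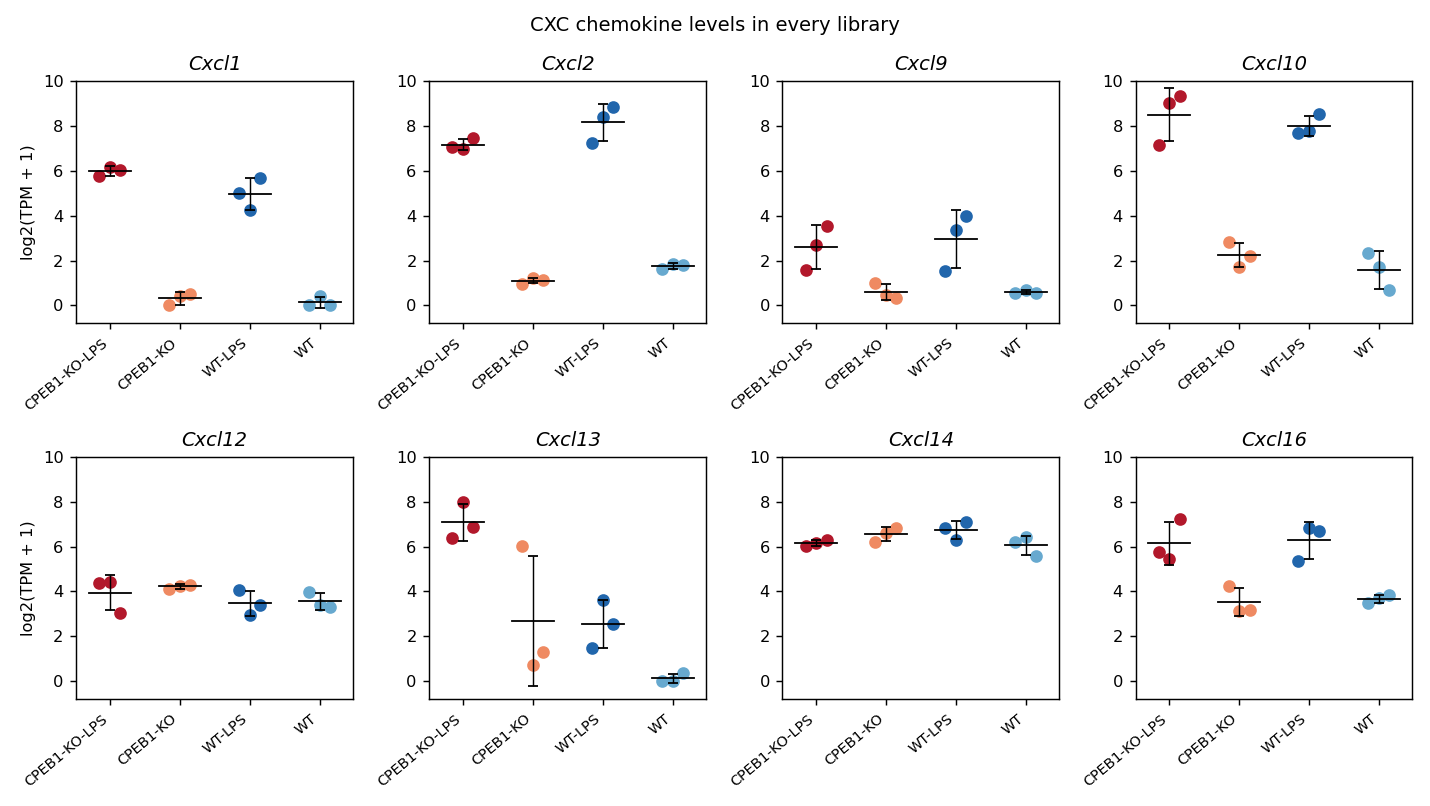
Level of each chemokine in each library, as log2(TPM + 1), in the 4 groups. Points are libraries and bars with whiskers are the mean ± SD of 3 libraries, and Cxcl13 is the member whose CPEB1-KO-LPS libraries (81.1 to 254 TPM) lie far above its WT-LPS libraries (1.77 to 11.2 TPM).

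**Figure D3:**
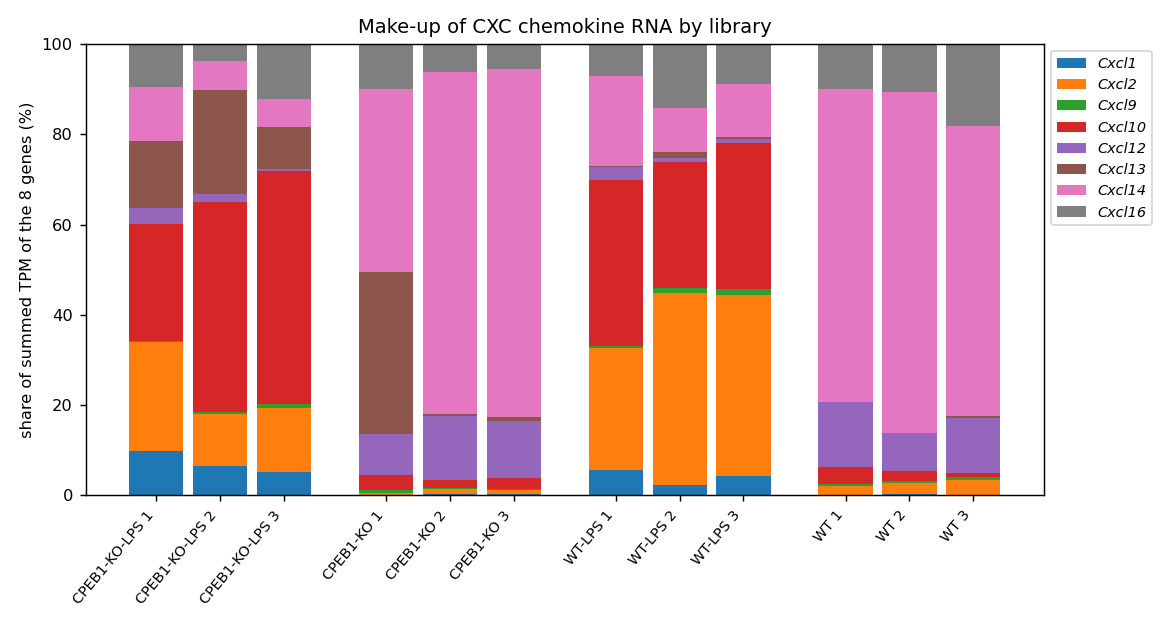
Share of each chemokine in the summed TPM of the 8, in percent, in each library. Cxcl14 fills most of the bar in 5 of the 6 untreated libraries, and Cxcl10 and Cxcl2 are the widest segments in most LPS libraries.

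LPS raised the same 5 chemokines in both genotypes, Cxcl1, Cxcl2, Cxcl9, Cxcl10 and Cxcl16, and lowered none of the 8 (2.12% of all genes fell in CPEB1-KO-LPS against CPEB1-KO and 14.9% in WT-LPS against WT). In CPEB1-KO-LPS against CPEB1-KO, 5 of 8 rose at an adjusted p under 0.05 (edgeR's quasi-likelihood test with Benjamini-Hochberg adjustment over 15295 genes), where 4.1% of all genes tested rose and 6.22% changed in either direction. In WT-LPS against WT the same count of 5 stood against 12.4% of all genes, with 27.4% changed in either direction. The median log2 fold change of the members was 3.28 in CPEB1-KO-LPS against CPEB1-KO and 4.69 in WT-LPS against WT, and the medians of all genes were 0.00 and -0.03. All 3 LPS libraries lay above all 3 untreated libraries for 6 of 8 members in each genotype, the 5 named and Cxcl13, against 16.2% of all genes in CPEB1-KO-LPS against CPEB1-KO and 27.4% in WT-LPS against WT. None of the 8 lay wholly below, against 15% and 10.8% of all genes in these comparisons.

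Marker lists of other cells moved with LPS as well. For the counts below, the shares of all genes tested were 4.1% higher and 2.12% lower in CPEB1-KO-LPS against CPEB1-KO. In WT-LPS against WT they were 12.4% higher and 14.9% lower. The 8 monocyte markers summed to 113 to 186 TPM in CPEB1-KO-LPS, against 23.3 to 94.0 TPM in CPEB1-KO (2 rose and 1 fell). They summed to 271 to 537 TPM in WT-LPS, against 47.0 to 66.3 TPM in WT (6 rose and 0 fell), and F10 was the one at 0 in some libraries. The 12 endothelial markers, which include the LPS-inducible adhesion molecules Icam1, Vcam1 and Sele, summed to 108 to 247 TPM in CPEB1-KO-LPS, against 95.2 to 130.5 TPM in CPEB1-KO (of 11 tested, 1 rose and 3 fell). They summed to 184 to 469 TPM in WT-LPS, against 68.1 to 93.0 TPM in WT (5 rose and 2 fell), and Sele was at 0 in 8 libraries. Microglia markers fell, 3 of 12 in CPEB1-KO-LPS against CPEB1-KO and 7 of 12 in WT-LPS against WT. Choroid plexus and ependyma markers fell as well, 5 of 7 in CPEB1-KO-LPS against CPEB1-KO and 7 of 7 in WT-LPS against WT. Oligodendrocyte lineage markers fell for 4 of 12 and 5 of 12 in the same order of comparisons. In WT-LPS against WT, 5 of 9 border macrophage markers fell and 1 rose, and 5 of 11 tested lymphocyte markers fell. In CPEB1-KO-LPS against CPEB1-KO no border macrophage or lymphocyte marker fell, and 1 border macrophage marker rose.

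The 4 measured erythroid markers, none of them at 0, summed to 7051, 11850.5 and 61141 TPM in CPEB1-KO-LPS, against 27877 to 37849 TPM in CPEB1-KO, and to 6544 to 10887 TPM in WT-LPS, against 41663 to 66991 TPM in WT. CPEB1-KO-LPS replicate 3 thus stood apart from the other LPS libraries in these markers. Without it 4 of 8 chemokines rose in CPEB1-KO-LPS against CPEB1-KO, Cxcl9 no longer among them. The LPS groups were not uniform in microglia markers either. These summed to 1062, 4985 and 3367 TPM in WT-LPS replicates 1, 2 and 3, and to 1278, 772 and 2959 TPM in those of CPEB1-KO-LPS. WT-LPS replicate 1 was also the lowest of its group in Cxcl2, Cxcl9 and Cxcl16. The part of these cells in the rise of the chemokines was not tested.

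The neutrophil chemokines were abundant with LPS and near absent without it. Cxcl1 was at 53.5, 71.8 and 64.3 TPM in CPEB1-KO-LPS, against 0, 0.35 and 0.42 TPM in CPEB1-KO. It was at 31.1, 18.0 and 49.7 TPM in WT-LPS, against 0, 0.35 and 0 TPM in WT. The LPS libraries were at least 18.0 TPM and the untreated ones at most 0.42 TPM. The log2 fold change was 7.81 ± 0.60 in CPEB1-KO-LPS against CPEB1-KO (SE, adjusted p = 1.16e-05). WT held 1 count in all, so the change there is given as a ratio of scaled counts, 263.1-fold with a 95% counting interval of 47.0 to 10420 (adjusted p = 4.84e-05). Because of that count the fitted change moved by more than 1.5 times without WT replicate 1 or 2 and passed in both cases, with adjusted p of 2.95e-04 and 4.44e-04 (at most 5.68e-04 over all alternatives).

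Cxcl2 was detected in every library. It was at 132, 126 and 176 TPM in CPEB1-KO-LPS, against 0.96, 1.31 and 1.22 TPM in CPEB1-KO. It was at 152, 337 and 455 TPM in WT-LPS, against 2.05, 2.62 and 2.50 TPM in WT. Every LPS library was at least 126 TPM, and the CPEB1-KO-LPS libraries were closer to each other than the WT-LPS libraries were. The log2 fold changes were 7.0 ± 0.48 in CPEB1-KO-LPS against CPEB1-KO (adjusted p = 7.01e-06) and 6.71 ± 0.47 in WT-LPS against WT (adjusted p = 5.35e-06). The 10 measured neutrophil markers summed to 1318 to 4056 TPM in CPEB1-KO-LPS, 549 to 2963 TPM in CPEB1-KO, 1499 to 3181 TPM in WT-LPS and 1149 to 2777 TPM in WT, and their part in these levels was not tested.

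The interferon-type chemokines Cxcl9 and Cxcl10 rose too, with more spread and with unlike levels in untreated libraries. Cxcl10 was at 141, 514 and 643 TPM in CPEB1-KO-LPS, against 6.0, 2.29 and 3.60 TPM in CPEB1-KO. It was at 206, 221 and 368 TPM in WT-LPS, against 4.02, 2.28 and 0.61 TPM in WT. The log2 fold changes were 6.90 ± 0.68 in CPEB1-KO-LPS against CPEB1-KO (adjusted p = 8.11e-05) and 6.39 ± 0.70 in WT-LPS against WT (adjusted p = 1.04e-04), the second of which was 6.995 without WT replicate 1. Exons of Cxcl10 overlap those of Art3 on the other strand, and Art3 stood at 1.39 to 3.76 TPM in all 12 libraries, so untreated levels of Cxcl10 near that range are uncertain where reads were counted without strand.

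Cxcl9 was the least abundant of the 5 after LPS, and was at or under 1.01 TPM in every untreated library. It was at 1.96, 5.43 and 10.7 TPM in CPEB1-KO-LPS, against 1.01, 0.36 and 0.27 TPM in CPEB1-KO. It was at 1.86, 9.44 and 14.8 TPM in WT-LPS, against 0.47, 0.63 and 0.49 TPM in WT. The groups did not overlap in either genotype, but replicate 1 of each LPS group was within 4 TPM of the untreated libraries. The log2 fold change was 3.59 ± 0.84 in CPEB1-KO-LPS against CPEB1-KO (adjusted p = 0.0227) and 3.69 ± 0.88 in WT-LPS against WT (adjusted p = 0.00831). The first of these did not pass in the fits that left out CPEB1-KO replicate 2, CPEB1-KO replicate 3 or replicate 3 of CPEB1-KO-LPS (0.113, 0.107 and 0.0746 for the adjusted p), and was 4.36 without CPEB1-KO replicate 1 and 2.71 without CPEB1-KO-LPS replicate 3. It also missed with the replicate number as a block (3.15, adjusted p = 0.0512) and with the authors' TPM on the log2(TPM + 1) scale (adjusted p = 0.0537), within a range of 1.34e-04 to 0.113 over 19 alternatives.

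Cxcl16, the membrane-bound ligand of Cxcr6, was already present without LPS. It was at 52.7, 42.5 and 150.9 TPM in CPEB1-KO-LPS, against 17.9, 7.86 and 8.14 TPM in CPEB1-KO. It was at 39.3, 112 and 102 TPM in WT-LPS, against 10.3, 11.9 and 13.4 TPM in WT. Replicate 3 of CPEB1-KO-LPS and replicate 1 of CPEB1-KO were the high libraries of their groups. The log2 fold changes were 2.98 ± 0.60 (adjusted p = 0.00979) in CPEB1-KO-LPS against CPEB1-KO and 2.49 ± 0.59 (adjusted p = 0.00824) in WT-LPS against WT. In CPEB1-KO-LPS against CPEB1-KO it did not pass without CPEB1-KO replicate 2 or 3 (adjusted p = 0.0610 and 0.0569; 8.58e-06 to 0.0610 over 19 alternatives), and the change was 1.99 without CPEB1-KO-LPS replicate 3. With Cxcl9, this brought the count from 5 to 3 without CPEB1-KO replicate 2 and without CPEB1-KO replicate 3. Exons of Cxcl16 overlap those of Zmynd15 on the other strand, its counts were fractional in 11 of 12 libraries, and Zmynd15 rose by 2.46 ± 0.62 in CPEB1-KO-LPS against CPEB1-KO and 2.76 ± 0.66 in WT-LPS against WT (adjusted p = 0.0348 and 0.00886). Zmynd15 averaged 3.10 ± 0.06 TPM in CPEB1-KO-LPS and 4.31 ± 1.81 TPM in WT-LPS, far below Cxcl16.

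Cxcl12 and Cxcl14, the homeostatic members, did not pass the test in either genotype. Cxcl12 was at 19.9, 20.1 and 7.29 TPM in CPEB1-KO-LPS, against 16.3, 18.1 and 18.6 TPM in CPEB1-KO. It was at 15.6, 6.75 and 9.54 TPM in WT-LPS, against 14.7, 9.36 and 8.97 TPM in WT. The groups overlapped, and the log2 fold change was -0.20 ± 0.31 in CPEB1-KO-LPS against CPEB1-KO (adjusted p = 0.776) and -0.20 ± 0.32 in WT-LPS against WT (adjusted p = 0.671). The 12 neuron markers, none of them at 0, ordered the libraries as Cxcl12 did within each group except WT. They summed to 4060, 4464 and 2364 TPM in CPEB1-KO-LPS, 3693, 4769 and 5199 TPM in CPEB1-KO, 5850, 2055 and 2496 TPM in WT-LPS and 3624, 1243 and 1524 TPM in WT. Their part in the level of Cxcl12 was not tested.

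Cxcl14 was at 64.9, 71.0 and 77.8 TPM in CPEB1-KO-LPS, against 73.0, 96.7 and 113.5 TPM in CPEB1-KO. It was at 111, 78.0 and 134 TPM in WT-LPS, against 71.4, 84.1 and 47.2 TPM in WT. The groups overlapped in both comparisons, with a log2 fold change of -0.34 ± 0.28 in CPEB1-KO-LPS against CPEB1-KO (adjusted p = 0.548) and 0.27 ± 0.28 in WT-LPS against WT (adjusted p = 0.508). The member that led the sum before LPS was thus within 2 SE of no change after it.

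**Figure D4:**
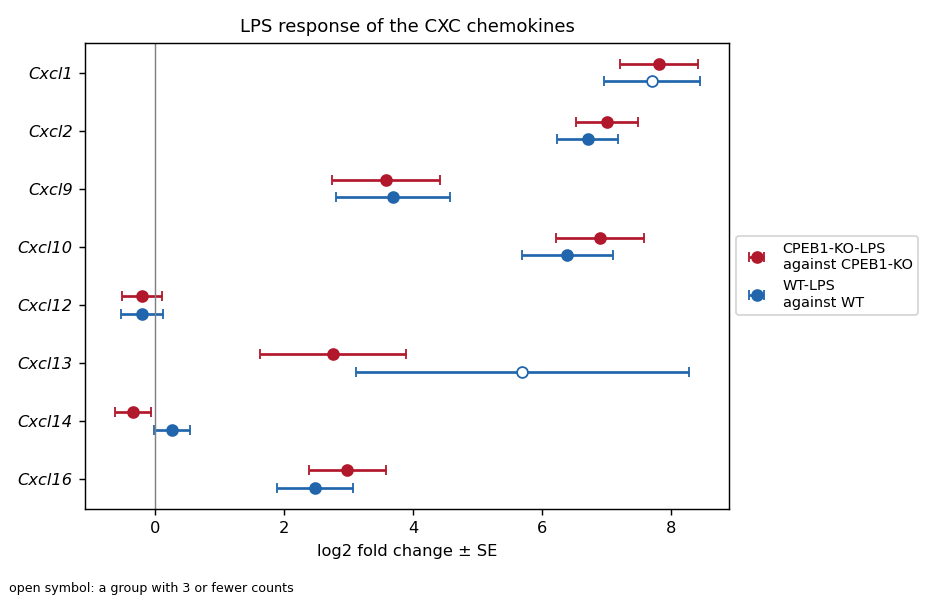
Log2 fold change of each member after LPS, with its SE, in CPEB1-KO-LPS against CPEB1-KO and in WT-LPS against WT. Open symbols mark members with 3 or fewer counts in a group, and Cxcl12 and Cxcl14 lie at 0 in both comparisons within 2 SE.

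Cxcl13, the B cell chemokine, differed widely between libraries. It was at 81.1, 254 and 116 TPM in CPEB1-KO-LPS, against 64.4, 0.67 and 1.44 TPM in CPEB1-KO. It was at 1.77, 11.2 and 4.79 TPM in WT-LPS, against 0, 0 and 0.29 TPM in WT. Replicate 1 of CPEB1-KO stood alone among the untreated libraries, with 369 counts against 5 and 9 in the other CPEB1-KO libraries, and Cxcl13 made up 35.9% of the chemokine sum there. The LPS libraries were above the untreated ones in both genotypes without passing the test. The log2 fold change was 2.76 ± 1.13 in CPEB1-KO-LPS against CPEB1-KO (adjusted p = 0.182; 7.73e-04 to 0.409 over 19 alternatives). WT held 1 count, and the scaled ratio of WT-LPS to WT was 60.6 (counting interval 10.6 to 2414; adjusted p = 0.115; 0.00765 to 0.268 over 18 alternatives).

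Leaving out CPEB1-KO replicate 1 changed these calls. Cxcl13 then rose by 7.23 on the log2 scale in CPEB1-KO-LPS against CPEB1-KO (adjusted p = 7.73e-04) and passed in WT-LPS against WT (adjusted p = 0.00765), which brought the count of members that rose to 6 in each. With the authors' TPM, Cxcl13 passed in CPEB1-KO-LPS against CPEB1-KO at both pseudocounts (adjusted p = 0.0234 for 1 and 0.0375 for 0.1). In WT-LPS against WT it passed with DESeq2 (adjusted p = 0.0106) and with a pseudocount of 0.1 on TPM (adjusted p = 0.0126).

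Between genotypes no member passed the test, and Cxcl13 had the widest difference of the 8 on either side of LPS. In CPEB1-KO against WT, 0 of 8 members passed (edgeR's quasi-likelihood test; 0.0327% of all genes did), 2 had an unadjusted p under 0.05 (18.6% of all genes did), and DESeq2 called 1, Cxcl13, among 492 genes. In CPEB1-KO-LPS against WT-LPS, 0 of 8 passed (0.00654% of all genes did), 3 had an unadjusted p under 0.05 (10.8% of all genes did) and DESeq2 called 0 of the 8 and 80 of all genes. The members' median log2 difference was 0.23 in CPEB1-KO against WT and 0.29 in CPEB1-KO-LPS against WT-LPS, beside -0.03 and 0.06 over all genes. In CPEB1-KO against WT, groups were apart for Cxcl12 and Cxcl13 (higher, as for 26.7% of all genes) and Cxcl2 (lower, as for 5.09%). In CPEB1-KO-LPS against WT-LPS they were apart for Cxcl1 and Cxcl13 (higher, as for 3.73%) and Cxcl14 (lower, as for 8.75%).

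After LPS, Cxcl13 in CPEB1-KO-LPS was 25.7-fold its level in WT-LPS by the fitted log2 difference of 4.69 ± 1.26 (adjusted p = 0.361, edgeR), and all 3 CPEB1-KO-LPS libraries of 81.1 to 254 TPM were above the WT-LPS libraries of 1.77 to 11.2 TPM. The difference was 5.66 without WT-LPS replicate 2, the highest of its group. Without CPEB1-KO replicate 1, which is in neither group but adds to the shared estimate of the spread, the difference was 4.68 with an adjusted p of 0.0418 (0.0418 to 0.962 over 19 alternatives). In CPEB1-KO against WT, Cxcl13 had 383 counts against 1, a scaled ratio of 209.9 (counting interval 37.5 to 8313; adjusted p = 0.169, edgeR). DESeq2 called it (adjusted p = 0.00819; 0.00819 to 0.556 over 18 alternatives). That ratio rested on replicate 1 of CPEB1-KO, and without it the adjusted p was 0.345, while the other 2 CPEB1-KO libraries, at 0.67 and 1.44 TPM, were still above the WT range of 0 to 0.29 TPM. Averaged over untreated and LPS libraries, a comparison added after the values were seen, Cxcl13 had an adjusted p of 0.122 (0.124% of all genes passed, 0.0327% higher and 0.0915% lower). As an additive term over 6 libraries per genotype the log2 difference was 5.08 ± 1.02 (adjusted p = 0.117). The averaged comparison passed when CPEB1-KO replicate 2 or replicate 3 of CPEB1-KO-LPS was left out (0.0403 and 0.0471 for the adjusted p), without the filter (0.0392) and with DESeq2 (3.45e-04), within 3.45e-04 to 0.396 over 18 alternatives.

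Markers of cells known to make or meet Cxcl13 were set beside it. The 12 measured lymphocyte markers summed to 20.1, 24.5 and 33.4 TPM in CPEB1-KO-LPS, 88.3, 23.5 and 18.3 TPM in CPEB1-KO, 20.5, 26.2 and 25.6 TPM in WT-LPS and 68.8, 44.6 and 39.0 TPM in WT. CPEB1-KO replicate 1, high in Cxcl13, was also the highest in lymphocyte markers. Other libraries did not follow this order. WT replicate 1 was next in lymphocyte markers, with Cxcl13 at 0. CPEB1-KO-LPS replicate 2, the highest in Cxcl13 at 254 TPM, held 24.5 TPM of them. The part of lymphocytes in the level of Cxcl13 was not tested. Border macrophage markers (9 genes, none at 0) summed to 29.0 to 53.6 TPM in CPEB1-KO-LPS, 24.6 to 34.5 TPM in CPEB1-KO, 26.6 to 43.6 TPM in WT-LPS and 38.5 to 56.1 TPM in WT. Cd3g, Klrb1c and Ms4a1 were each at 0 in 1 library. Cxcr5, the receptor of Cxcl13, was too low to be tested, at 0.28 to 0.45 TPM in CPEB1-KO-LPS, 0.25 to 0.86 TPM in CPEB1-KO, 0.13 to 0.33 TPM in WT-LPS and 0 to 1.18 TPM in WT, and its exons overlap those of Bcl9l on the other strand.

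The neutrophil chemokines leaned in opposite directions between genotypes after LPS. Cxcl1 was higher in all 3 CPEB1-KO-LPS libraries than in any WT-LPS library (53.5 to 71.8 against 18.0 to 49.7 TPM), with a log2 difference of 1.06 ± 0.37 (adjusted p = 0.422, edgeR). Cxcl2 was at 126 to 176 TPM in CPEB1-KO-LPS and 152 to 455 TPM in WT-LPS, with a log2 difference of -1.02 ± 0.34 (adjusted p = 0.421, edgeR). Only WT-LPS replicate 1, at 152 TPM, lay within the CPEB1-KO-LPS range of Cxcl2. Without LPS Cxcl2 was at 0.96 to 1.31 TPM in CPEB1-KO, below the 2.05 to 2.62 TPM of WT, with a log2 difference of -1.31 ± 0.58 that rests on 21 and 28 counts (adjusted p = 0.249, edgeR). Averaged over LPS the difference was -1.16 ± 0.33 (adjusted p = 0.321), and it passed without WT-LPS replicate 1 at -1.36 (adjusted p = 0.0486; 0.0486 to 0.647 over 18 alternatives). Microglia markers were lower without LPS as well, at 2895 to 4548 TPM in CPEB1-KO and 6173 to 7088.5 TPM in WT. Monocyte markers were lower after LPS, at 113 to 186 TPM in CPEB1-KO-LPS and 271 to 537 TPM in WT-LPS. Microglia markers after LPS, monocyte markers without it and neutrophil markers overlapped between genotypes. In these lists 0 markers passed between genotypes, and their part in the level of Cxcl2 was not tested. Cxcl1 before LPS had 4 counts in CPEB1-KO and 1 in WT, a ratio of 2.19 (interval 0.217 to 108), and no difference was detectable at this depth.

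The other members differed less, and none of them had an unadjusted p under 0.05. In CPEB1-KO-LPS against WT-LPS the log2 difference was 0.86 ± 0.51 for Cxcl10, 0.48 ± 0.31 for Cxcl12, -0.38 ± 0.69 for Cxcl9, 0.10 ± 0.55 for Cxcl16 and -0.49 ± 0.28 for Cxcl14. For Cxcl14 the CPEB1-KO-LPS libraries, at 64.9 to 77.8 TPM, lay just under the WT-LPS libraries at 78.0 to 134 TPM. In CPEB1-KO against WT it was 0.47 ± 0.32 for Cxcl12, whose CPEB1-KO libraries at 16.3 to 18.6 TPM were above the WT libraries at 8.97 to 14.7 TPM. Neuron markers stood in the same order there, at 3693 to 5199 TPM in CPEB1-KO and 1243 to 3624 TPM in WT. Mural and fibroblast markers stood in the opposite order, at 93.62 to 106.55 TPM in CPEB1-KO and 118.71 to 148.11 TPM in WT. The part of either list was not tested. Cxcl9, Cxcl10, Cxcl14 and Cxcl16 were at -0.27 ± 0.99, 0.36 ± 0.73, 0.11 ± 0.28 and -0.39 ± 0.57, with overlapping groups.

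**Figure D5:**
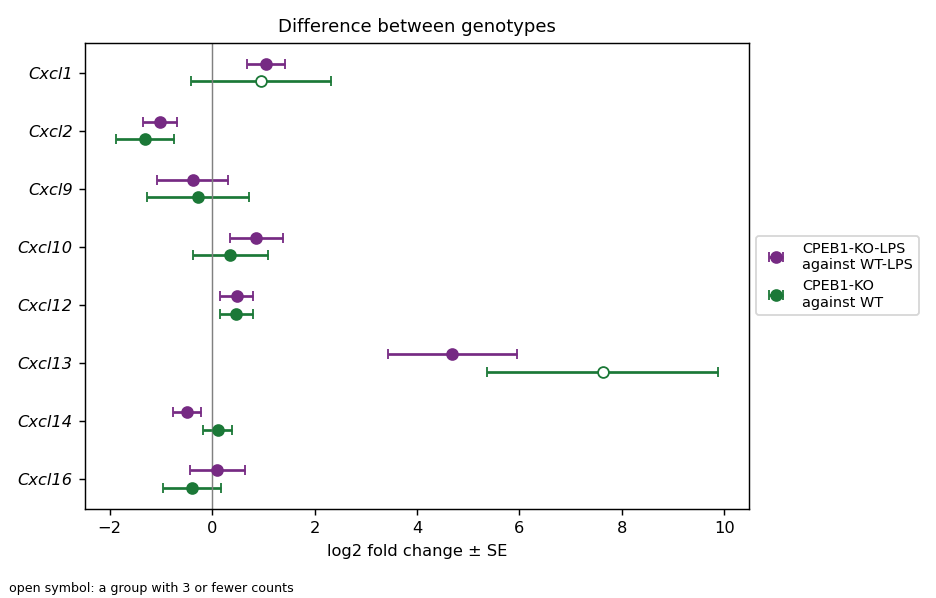
Log2 difference of each member between genotypes, with its SE, in CPEB1-KO-LPS against WT-LPS and in CPEB1-KO against WT. Open symbols mark members with 3 or fewer counts in a group, and Cxcl13 (4.69 ± 1.26 after LPS) lies farthest from 0 without passing the adjusted threshold.

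Whether LPS acted differently in the genotypes was asked by the interaction, the response in CPEB1-KO minus the response in WT. Of the 8 members 0 passed (edgeR; 0.00654% of all genes did), 0 had an unadjusted p under 0.05 (15.5% of all genes did) and DESeq2 called 0. The differences of the responses, on the log2 scale, were -0.60 ± 0.40 for Cxcl14, 0.30 ± 0.64 for Cxcl2, 0.51 ± 0.90 for Cxcl10, -0.11 ± 1.25 for Cxcl9, 0.50 ± 0.79 for Cxcl16 and 0.00 ± 0.44 for Cxcl12. Errors of this size leave a difference of 2-fold within 2 SE of the value for Cxcl2, Cxcl9, Cxcl10, Cxcl14 and Cxcl16. The fitted values of Cxcl1 and Cxcl13 rest on the 1 count of each in WT, and their signs changed between alternatives. That of Cxcl13 also rests on CPEB1-KO replicate 1, and was -2.94 with this library and 1.53 without it.

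Of 7 other CXC ligands, 4 could be tested. Cxcl3, a neutrophil chemokine of the Cxcl1 cluster, rose in both genotypes (edgeR adjusted p = 7.93e-04 and 0.00745). It was at 14.8, 8.72 and 36.4 TPM in CPEB1-KO-LPS, against 0.21, 0 and 0 TPM in CPEB1-KO, a scaled ratio of 315.3 on 1 count (counting interval 56.2 to 12490). It was at 4.21, 2.60 and 4.28 TPM in WT-LPS and listed at 0 in the 3 WT libraries, which is at least 10.9-fold higher against a floor of 3 counts over the group. Every CPEB1-KO-LPS library was above every WT-LPS library, as for 3.73% of all genes, with a log2 difference of 2.61 ± 0.62 (adjusted p = 0.361, edgeR). Cxcl5, which also binds Cxcr2, rose by 3.63 ± 0.61 in CPEB1-KO-LPS against CPEB1-KO and by 2.30 ± 0.64 in WT-LPS against WT (adjusted p = 0.00335 and 0.0177). The platelet chemokines Pf4 and Ppbp fell in WT-LPS against WT, by 1.45 ± 0.44 and 2.58 ± 0.66 on the log2 scale (adjusted p = 0.0259 and 0.0117), and did not pass in CPEB1-KO-LPS against CPEB1-KO. Cxcl11 and Cxcl17 were too low to be tested, and Cxcl15 was at 0 in all 12 libraries.

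Of 8 receptors, 6 were tested, of which 0 rose and 1 fell in CPEB1-KO-LPS against CPEB1-KO (4.1% and 2.12% of all genes) and 1 rose and 1 fell in WT-LPS against WT (12.4% and 14.9% of all genes). Ackr1, an atypical receptor that binds many chemokines without signalling, was the most abundant, at 129.9 ± 49.6 TPM in CPEB1-KO-LPS, 84.7 ± 10.2 TPM in CPEB1-KO, 90.6 ± 12.4 TPM in WT-LPS and 78.4 ± 42.3 TPM in WT, and did not pass. Its exons overlap those of Cadm3 on the same strand, so its level is uncertain, and the part of Cadm3 in it was not tested. Cxcr2, the receptor of Cxcl1 and Cxcl2, averaged 0.92 ± 0.19 TPM in CPEB1-KO-LPS, 0.79 ± 0.30 TPM in CPEB1-KO, 1.17 ± 0.38 TPM in WT-LPS and 0.99 ± 0.36 TPM in WT, and did not pass. Cxcr3, the receptor of Cxcl9 and Cxcl10, averaged 0.53 ± 0.43 TPM in CPEB1-KO-LPS and 1.33 ± 0.96 TPM in CPEB1-KO (adjusted p = 0.438), and fell to 0.14 ± 0.13 TPM in WT-LPS, against 1.32 ± 0.98 TPM in WT (log2 fold change -3.50 ± 1.05, adjusted p = 0.0259).

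Cxcr6, the receptor of Cxcl16, fell by 2.80 ± 0.78 on the log2 scale in CPEB1-KO-LPS against CPEB1-KO (adjusted p = 0.0494) and was at -2.27 ± 0.86 in WT-LPS against WT (adjusted p = 0.0653). Its levels were 0.32, 0.66 and 0.28 TPM in CPEB1-KO-LPS, against 7.01, 1.10 and 1.06 TPM in CPEB1-KO, so that CPEB1-KO replicate 1, the library high in Cxcl13 and lymphocyte markers, was also the highest in Cxcr6. Cxcr4, the receptor of Cxcl12, averaged 6.84 ± 4.18 TPM in CPEB1-KO-LPS, 3.96 ± 1.33 TPM in CPEB1-KO, 5.71 ± 0.71 TPM in WT-LPS and 4.01 ± 1.12 TPM in WT and did not pass. Ackr3, a scavenger of Cxcl12, rose to 14.7 ± 7.96 TPM in WT-LPS, against 4.37 ± 0.76 TPM in WT (1.38 ± 0.33, adjusted p = 0.00895), and was at 0.55 ± 0.32 in CPEB1-KO-LPS against CPEB1-KO (adjusted p = 0.374). No receptor passed in CPEB1-KO-LPS against WT-LPS, in CPEB1-KO against WT or in the interaction. In WT-LPS against WT the ligands Cxcl9 and Cxcl10 were thus higher and their receptor lower in the same libraries. The fall of Cxcr3 rests on 4 counts in WT-LPS and 28 in WT, with overlapping ranges (0 to 0.23 and 0.19 to 1.95 TPM). Lymphocyte markers also fell there, 5 of 11 tested (14.9% of all genes), and their part in the level of Cxcr3 was not tested.

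Genes that act on these chemokines were tested in the same fit. Of 22 transcription factors and NF-κB regulators of CXC chemokine genes, 12 rose and 0 fell in CPEB1-KO-LPS against CPEB1-KO (4.1% and 2.12% of all genes), and 14 rose and 1 fell in WT-LPS against WT (12.4% and 14.9% of all genes). Nfkbiz, a co-activator of NF-κB, rose by 4.19 ± 0.64 in CPEB1-KO-LPS against CPEB1-KO and 5.55 ± 0.69 in WT-LPS against WT (adjusted p = 0.00165 and 2.42e-04). Bcl3, of the same family, rose by 5.03 ± 0.60 and 3.86 ± 0.57, and Nfkbia, the inhibitor that NF-κB induces, by 3.80 ± 0.52 and 3.98 ± 0.53 in the same order of comparisons. Stat3 rose by 1.87 ± 0.29 in CPEB1-KO-LPS against CPEB1-KO and 1.93 ± 0.29 in WT-LPS against WT. The gene that fell was Irf3, named after its value was seen, at -1.52 ± 0.31 in WT-LPS against WT.

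Of 12 genes that control the decay of chemokine mRNAs, 1 rose in CPEB1-KO-LPS against CPEB1-KO (4.1% of all genes) and 6 rose in WT-LPS against WT (12.4% of all genes), and none fell. The nuclease Zc3h12a rose by 4.25 ± 0.59 in CPEB1-KO-LPS against CPEB1-KO and 4.57 ± 0.60 in WT-LPS against WT (adjusted p = 8.40e-04 and 3.50e-04). In WT-LPS against WT, Ddx3x rose by 1.24 ± 0.23, the interleukin 17 adaptor Traf3ip2 by 1.60 ± 0.35 and the decay factor Rc3h1 by 0.83 ± 0.25, and these were at 0.58 ± 0.22, 0.27 ± 0.32 and -0.16 ± 0.24 in CPEB1-KO-LPS against CPEB1-KO without passing. Of 17 genes of chemokine processing and receptor signalling, 2 rose in CPEB1-KO-LPS against CPEB1-KO (4.1% of all genes), and 3 rose and 1 fell in WT-LPS against WT (12.4% and 14.9% of all genes). The membrane protease Mmp14, which cuts chemokines, rose by 3.05 ± 0.55 and 3.49 ± 0.56, and Rgs1, a brake on chemokine receptor signalling, by 3.03 ± 0.69 and 3.67 ± 0.71. In WT-LPS against WT the receptor kinase Grk6 rose by 0.76 ± 0.21 and Rgs2 fell by 1.40 ± 0.28. In these lists 0 genes passed in CPEB1-KO-LPS against WT-LPS, in CPEB1-KO against WT and in the interaction.

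For each member, the genes with the most similar profile were sought by the root mean square difference of centred log2 CPM over 12 libraries, a measure on which 0 is identity. Profiles were not scaled for the size of their changes, so flat genes have small distances and widely varying genes large ones. Distances are therefore read within a member and not between members. Cxcl14 was nearest to Rnd2 at 0.126 and Fam213a at 0.131. Cxcl12 was nearest to Tdrp at 0.134 and Tstd3 at 0.163. The profiles of these genes were nearly flat across LPS. Cxcl16 was nearest to Cebpb, an LPS-induced transcription factor, at 0.27 and to the complement receptor gene C3ar1 at 0.349. Cxcl9 was nearest to the interferon-induced Gbp3 at 0.433 and the adhesion molecule Icam1 at 0.455. Cxcl2 had the complement factor Cfb at 0.56 and the granulocyte growth factor Csf3 at 0.625. Cxcl1 and Cxcl10 shared Mmp3 (0.632 and 0.74) and Csf3 (0.795 and 0.723). Cxcl13, which differed widely between libraries, was nearest to Cxcl3 at 2.14 and the complement gene C4b at 2.21. No gene that was compared was within 2 log2 units of it. Because profiles were not scaled, this does not show that no gene varied along with Cxcl13. The other members, predicted genes and genes with no group mean of 5 TPM were not compared.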

How the data were processed

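Transcript levels were measured in 12 microglial libraries, and the authors deposited a table of expected counts per gene, not normalised between libraries, and a table of TPM. Between 3.69% and 4.66% of the expected counts in a library are not whole numbers. Per the submitters' processing notes, cutadapt, RSEM and the mm10 build were used. The aligner, the tools' versions and any use of strand in counting were not given in the sources used here. Reads were not marked by molecule, so counting intervals and the floor of 3 counts cover counting error only.

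The deposited counts were rounded and tested in edgeR 4.0.16 (R 4.3.3), after filterByExpr (15295 genes) and TMM scaling. A quasi-likelihood model of 4 group means over all 12 libraries (8 residual degrees of freedom) gave every comparison, two-sided, with Benjamini-Hochberg adjustment over all genes at 0.05. SE is the absolute log2 fold change over the square root of F. A group with 1 to 3 counts is compared by the ratio of scaled counts with its exact 95% interval. The procedure was tested on simulated counts. Alternatives were RLE scaling, DESeq2 1.42.0, no filter, fits of only the groups compared, a replicate block, limma 3.58.1 on log2(TPM + 1) and log2(TPM + 0.1), and leaving out each library.

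The members, gene lists and motifs were chosen with earlier results of these data known. Named were all 8 members, their receptors, of each other list up to 4 genes past 0.05 with the smallest p in WT-LPS against WT, and for each member the 2 most similar genes with a group mean of at least 5 TPM. Members and predicted genes (symbols of the Gm, LOC and Rik types) were left out of that search. Promoter sequences are from RefSeq (GRCm38.p6) and other positions from GENCODE M21 (GRCm38, the mm10 assembly). Duplicate libraries were looked for and none was found. Same-numbered WT and WT-LPS libraries deviated together (correlations of 0.378, 0.149 and 0.176), a pairing taken from the data and not from the labels, and for this comparison a fit with the number as a block was added. In no other pair of groups did all 3 correlations exceed 0.1.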

Additional observations from a re-analysis of the deposited data

How the results depend on the processing

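Of 755 values of a member under an alternative, 690 kept their direction and their side of the threshold, 8 gained and 7 lost a call, and 50 changed sign. None of the 50 had passed the threshold or passed it under the alternative. Counts of members past the threshold ran, over the fits without 1 library, from 5 to 6 in WT-LPS against WT, 3 to 6 in CPEB1-KO-LPS against CPEB1-KO and 0 to 1 in CPEB1-KO-LPS against WT-LPS, and DESeq2 called 1 in CPEB1-KO against WT. The cause was not tested. Over all groups replicate numbers did not pair libraries (18 same-numbered pairs correlated from -0.344 to 0.378, 5 of them above 0.1, and 3 of 12 libraries were closest to their own number). The replicate block moved Cxcl9 in CPEB1-KO-LPS against CPEB1-KO to 3.15 (adjusted p = 0.0512), and the other members kept their calls under it. A block in a fit of WT-LPS and WT only, added after the data were seen, called the same 5 members and 3955 of all genes.

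Sign changes of values that had not passed were as follows. Cxcl16 in CPEB1-KO-LPS against WT-LPS was at -0.014 with the block and -0.13 with TPM at either pseudocount. In the interaction Cxcl12 was at -0.043 (RLE), -0.083 (no filter), -0.053 (block), -0.045 (DESeq2), -0.19 (log2(TPM + 1)) and -0.20 (log2(TPM + 0.1)). With TPM at pseudocounts 1 and 0.1, the interaction was -0.34 and -0.014 for Cxcl2, -0.17 and -0.49 for Cxcl10, and 1.97 and 0.078 for Cxcl13. Without 1 library, Cxcl12 ran from -0.37 to 0.060 in CPEB1-KO-LPS against CPEB1-KO and from -0.45 to 0.018 in WT-LPS against WT. In CPEB1-KO against WT the ranges were -1.05 to 0.049 for Cxcl9, -0.089 to 0.96 for Cxcl10 and -0.11 to 0.44 for Cxcl14. In CPEB1-KO-LPS against WT-LPS they were -1.26 to 0.14 for Cxcl9 and -0.89 to 0.46 for Cxcl16. In the interaction they were -2.43 to 0.94 for Cxcl1, -0.13 to 0.58 for Cxcl2, -0.99 to 0.67 for Cxcl9 and -0.096 to 0.95 for Cxcl10. For Cxcl12, Cxcl13 and Cxcl16 they were -0.21 to 0.25, -5.41 to 1.53 and -0.50 to 1.03. The values of Cxcl1 and Cxcl13 rest on 1 count each in WT. That of Cxcl13 also rests on CPEB1-KO replicate 1, without which it was 1.53. The averaged genotype difference of Cxcl16 ran from -0.64 to 0.035. In fits of only the groups compared, Cxcl13 was below the filter in WT-LPS against WT and CPEB1-KO against WT and has no value.

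Over all genes, counts past the threshold moved by over 1.5 times. WT-LPS against WT had 4185, 2592 in the fit of these groups only, and 2714 (the fit lacking replicate 3 of WT-LPS) to 4724 without 1 library. CPEB1-KO-LPS against CPEB1-KO had 952, 1621 with DESeq2 and 355 to 1132 without 1 library. CPEB1-KO against WT had 5, 492 with DESeq2, 11 without the filter, 3 with the block, 9 with log2(TPM + 1) and 2 to 1292 without 1 library. CPEB1-KO-LPS against WT-LPS had 1, 80 with DESeq2, 3 without the filter, 4 and 9 with TPM at pseudocounts 1 and 0.1, and 1 to 11 without 1 library. The interaction had 1, 281 with DESeq2, 0 with RLE, 2 and 0 with TPM, and 0 to 441 without 1 library. At log2(TPM + 1) the median gene moved to 0.28 in WT-LPS against WT, 0.26 in CPEB1-KO against WT and -0.30 in the interaction. Totals of 5.02 to 13.5 M limit Cxcl1, Cxcl9 and Cxcl13 in the untreated groups, where a library held at most a few counts of Cxcl1.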

Other observations

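Within single LPS libraries the levels of the neighbouring genes Cxcl2 and Cxcl1 stood in different ratios, a measure that does not depend on scaling between libraries and that was chosen after the values were seen. Cxcl2 TPM was 2.47, 1.76 and 2.73 times Cxcl1 TPM in CPEB1-KO-LPS, against 4.88, 18.7 and 9.15 times in WT-LPS. The mean log2 ratio was 1.19 ± 0.33 in CPEB1-KO-LPS and 3.24 ± 0.97 in WT-LPS (SD, n = 3 each), a difference of -2.05. The ratio was chosen because the libraries differed in it, so no test is given.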
